A study of Mus musculus with 7 samples.

Results

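BH3-only genes encode the proteins that start apoptosis at mitochondria, and 8 of them were followed here in mice with T-cell acute lymphoblastic leukemia of 2 kinds: Bcl2l11 (which encodes BIM), Bmf, Bid, Bad, Bbc3 (PUMA), Pmaip1 (NOXA), Bik and Hrk. The members were chosen by symbol, as every probe set annotated to exactly 1 of these 8 genes. This gave 20 of the 45037 probe sets on the array and 8 of its 18193 genes. All 20 are reported, and no filter on low values was applied.

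The leukemias were TEL-JAK2, driven by a fusion that keeps the kinase JAK2 active, and ICN1, driven by the activated intracellular part of NOTCH1. The 4 TEL-JAK2 arrays held cell suspensions of leukemic thymus and the 3 ICN1 arrays held cell suspensions of leukemic bone marrow, all from terminally ill C57Bl/6 mice. The labels do not give age, sex, the promoter or vector behind each oncogene, or any sorting step. Each genotype came from 1 tissue, so genotype and tissue cannot be told apart in any difference below.

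BH3-only proteins carry a single BCL2 homology helix. They bind the anti-apoptotic relatives BCL2, BCL-XL and MCL1, and some also activate the pore formers BAX and BAK. In the T lineage BIM is best known for the death of thymocytes after negative selection, after loss of cytokine or after glucocorticoid.

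The values are log2 expression levels from RMA, so 1 unit is a doubling. Array medians lay between 5.44 and 5.50, and a probe set near that level is dim. Differences are TEL-JAK2 minus ICN1 and carry the standard error of the fit (SE). A probe set was called when its Benjamini-Hochberg adjusted p by limma was under 0.05, with the adjustment spanning the 45037 probe sets. Levels are compared within a probe set only.

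Both sets of arrays read strongly for T-lineage markers. The mean of 11 such genes was 11.59 to 12.06 in TEL-JAK2 and 11.33 to 11.72 in ICN1. Of the 11, 6 were higher in TEL-JAK2, 1 (Ptcra, the pre-T-cell receptor alpha chain) was lower and 4 were not called. The 3 brightest were Cd3d and Lat, both higher, and Thy1, not called. Erythroid markers set the 2 groups apart, with a mean over 10 genes of 5.44 to 5.85 in TEL-JAK2 and 11.06 to 11.33 in ICN1. Of these 10, 8 were lower in TEL-JAK2. Of the 3 brightest, Alas2 and Car2 were lower and Gata1 was not called. The mean level over the list was 5.16 to 5.54 in TEL-JAK2 and 6.04 to 7.77 in ICN1 for 11 granulocyte markers (5 lower), 6.42 to 8.83 and 8.99 to 10.32 for 10 macrophage markers (4 lower), and 5.63 to 5.84 and 6.89 to 8.58 for 5 megakaryocyte markers (4 lower). It was 6.60 to 7.70 in TEL-JAK2 and 6.07 to 7.63 in ICN1 for 10 B-lineage markers (1 higher, Vpreb1). For 8 thymic epithelial markers it was 5.88 to 6.35 in TEL-JAK2 and 4.89 to 5.30 in ICN1 (1 higher). The 1 higher gene was Epcam, with means of 10.92 in TEL-JAK2 and 4.78 in ICN1, and it weighs heavily on that list. Foxn1 (4.85 and 4.52) and Psmb11 (3.98 and 3.94) were dim in both groups and not called. The part of these cell types in the differences below was not tested, and in bulk RNA fewer cells of a type and less RNA per cell cannot be told apart. Over all genes, each by its brightest probe set, 23% were called (11.3% higher and 11.7% lower). Each marker count above is to be read against that share. ICN1 replicates 1 and 2 held both Xist (11.51 and 11.78) and the Y-linked Eif2s3y (8.93 and 9.41), whereas the other 5 arrays held 1 of the 2. Calls with these 2 arrays left out are given where they change. The closest pair of arrays, TEL-JAK2 replicates 1 and 3, still differed more than 2-fold in 846 probe sets.

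BH3-only genes moved in both directions. Bcl2l11 and Bmf were higher in TEL-JAK2, Bid was lower, Bad was called from 1 of its 2 probe sets, and Bbc3, Pmaip1, Bik and Hrk were not called. Of the 20 probe sets, 8 were higher, 2 were lower and 10 were not called. Across all probe sets 19.6% were called (9.26% higher and 10.3% lower). Because 5 of the 8 higher probe sets measure the 1 gene Bcl2l11, the count by gene is smaller. With each gene represented by its brightest probe set, 3 of 8 genes were called, against 23% of all genes. The median difference of the 20 probe sets was 0.55, against 0.04 over the whole table. The groups did not overlap in 14 of the 20 probe sets, where 30.7% of all probe sets showed no overlap. When each array was centred on its average level of 4 CD3 genes (Cd3d, Cd3e, Cd3g and Cd247), this lowered every difference by 0.62, and the split then read 7 higher and 5 lower. The whole table then had 1558 higher and 30005 lower probe sets, in place of 4172 and 4660.

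**Figure D1:**
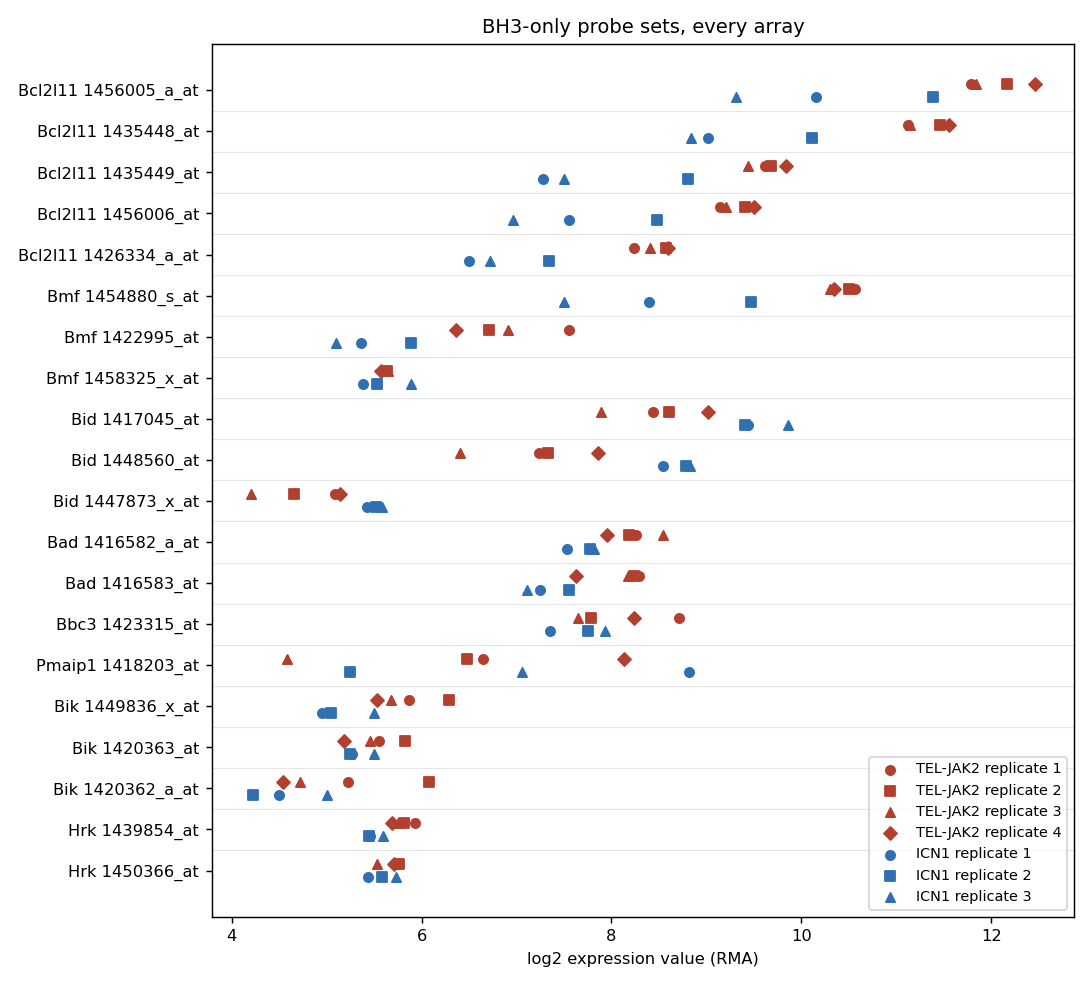
Log2 expression value (x axis) of each of the 20 BH3-only probe sets (rows) in each of the 4 TEL-JAK2 arrays (red) and 3 ICN1 arrays (blue). Marker shapes name the replicate. All 5 Bcl2l11 rows separate the groups with TEL-JAK2 to the right, all 3 Bid rows separate them with TEL-JAK2 to the left, and the Pmaip1 arrays are spread from 4.58 to 8.81 with the groups mixed.

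Bcl2l11 encodes BIM, which binds all the main anti-apoptotic BCL2 proteins and can activate BAX and BAK directly. Its brightest probe set, 1456005_a_at, read 11.79, 12.17, 11.84 and 12.46 in the TEL-JAK2 arrays, against 10.15, 11.39 and 9.31 in the ICN1 arrays. Each TEL-JAK2 array was above each ICN1 array, and ICN1 replicate 2 came closest to them. The difference was 1.78 ± 0.45 (SE), a 3.43-fold higher level (95% interval 1.66- to 7.08-fold), with an adjusted p = 0.0297 by limma.

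The next probe set by level, 1435448_at, read 11.12, 11.46, 11.14 and 11.55 in TEL-JAK2 and 9.02, 10.11 and 8.84 in ICN1. The groups again did not overlap, and the ICN1 arrays kept their order, with replicate 2 the highest and replicate 3 the lowest. This was the largest difference of the gene, 2.00 ± 0.30 or 3.99-fold, with an adjusted p = 0.00398 by limma. The remaining 3 probe sets gave differences of 1.78 (1435449_at), 1.65 (1456006_at) and 1.60 (1426334_a_at), with adjusted p = 0.0110, 0.0115 and 0.00206 by limma. Their TEL-JAK2 arrays lay at 9.44 to 9.84, 9.14 to 9.50 and 8.24 to 8.60, and their ICN1 arrays at 7.28 to 8.81, 6.97 to 8.48 and 6.50 to 7.34. Thus 5 of 5 probe sets of Bcl2l11 were called higher, with no overlap between the groups and with ICN1 replicate 2 the highest ICN1 array in each.

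The spread of Bcl2l11 lay in the ICN1 arrays. At 1456005_a_at the SD was 0.31 in TEL-JAK2 (n = 4) and 1.04 in ICN1 (n = 3), and at 1435449_at it was 0.17 and 0.83. ICN1 replicate 2 also had the highest mean of the granulocyte markers (7.77, against 6.85 and 6.04 in ICN1 replicates 1 and 3), of the megakaryocyte markers (8.58, against 7.45 and 6.89) and of the B-lineage markers (7.63, against 6.67 and 6.07). The T-lineage mean was highest there too (11.72, against 11.33 and 11.45), while replicate 1 was highest in the erythroid mean (11.33, against 11.21 and 11.06 in replicates 2 and 3), the macrophage mean (10.32, against 10.11 and 8.99) and the thymic epithelial mean (5.30, against 4.89 and 4.98). Their part in the ICN1 spread of Bcl2l11 was not tested. The call of 1456005_a_at was lost in 6 of the 7 leave-one-out fits and held when ICN1 replicate 2 was the array dropped. The adjusted p by limma was 0.0849 and 0.0551 without ICN1 replicates 1 and 3, and 0.0602, 0.0721, 0.0589 and 0.0641 without TEL-JAK2 replicates 1 to 4. The other 4 probe sets of the gene were called in all 7 fits. A per-probe-set test with unequal variances called none of the 5, with adjusted p from 0.117 to 0.271.

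Bmf binds the anti-apoptotic proteins much as BIM does and is held at the cytoskeleton in healthy cells. Its brightest probe set, 1454880_s_at, read 10.57, 10.50, 10.30 and 10.34 in TEL-JAK2, against 8.39, 9.47 and 7.50 in ICN1. The groups did not overlap, the TEL-JAK2 arrays lay within 0.27 of each other, and ICN1 replicate 2 was again the highest ICN1 array. The level was 3.92-fold higher in TEL-JAK2 (1.97 ± 0.40, adjusted p = 0.0136 by limma). Probe set 1422995_at was dimmer, with 7.55, 6.71, 6.91 and 6.36 in TEL-JAK2 and 5.36, 5.89 and 5.10 in ICN1. Here too the groups stood apart, by 1.43 ± 0.30 (adjusted p = 0.0146 by limma). With ICN1 replicate 3 as the single ICN1 array this call was lost (adjusted p = 0.0515).

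The third Bmf probe set, 1458325_x_at, did not follow the other two. It read 5.58, 5.64, 5.65 and 5.57 in TEL-JAK2 and 5.39, 5.53 and 5.88 in ICN1. These values lie near the array medians and overlap, and the difference was 0.01 ± 0.13 (95% interval -0.29 to 0.31, adjusted p = 0.970 by limma). The ending _x_at marks a probe set whose probes can match other transcripts. The brightest Bmf probe set, 1454880_s_at, was likewise left out when cross-hybridizing probe sets were removed, whereas 1422995_at stayed in and kept its call. The sign of 1458325_x_at turned with CD3 centring (-0.61, called with adjusted p = 0.0276 by limma) and with cyclic loess (-0.034).

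Bcl2l11 and Bmf lie on the same chromosome, at chr2:128126038-128162547 and chr2:118528757-118549686 (GRCm38.p6). Since both rose and Bid fell, 4 of the 6 RefSeq promoter windows of these genes are shown, the outermost of Bcl2l11 and Bmf, the single one of Bid and the one of Bmf with matches. Each window runs from 250 bases before to 50 bases after a transcript start, in the direction of the gene. They were searched on both strands for TTCNNNGAA (the STAT element), TGTTTAC (the FOXO element) and TGGGAA (the RBPJ element, through which NOTCH acts). Capitals mark a match, and none of the matches overlap. The windows are the outermost start of Bcl2l11 at chr2:128125788-128126087 (plus strand), the outermost start of Bmf at chr2:118549637-118549936 (minus strand), an inner start of Bmf at chr2:118544538-118544837 (minus strand) and a start of Bid at chr6:120916775-120917074 (minus strand).
Bcl2l11 outermost: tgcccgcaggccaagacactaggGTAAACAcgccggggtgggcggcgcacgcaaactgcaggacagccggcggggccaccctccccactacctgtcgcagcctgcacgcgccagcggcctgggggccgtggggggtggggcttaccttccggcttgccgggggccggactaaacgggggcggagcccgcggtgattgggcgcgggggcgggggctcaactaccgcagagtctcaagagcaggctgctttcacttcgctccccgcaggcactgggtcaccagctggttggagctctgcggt
Bmf outermost: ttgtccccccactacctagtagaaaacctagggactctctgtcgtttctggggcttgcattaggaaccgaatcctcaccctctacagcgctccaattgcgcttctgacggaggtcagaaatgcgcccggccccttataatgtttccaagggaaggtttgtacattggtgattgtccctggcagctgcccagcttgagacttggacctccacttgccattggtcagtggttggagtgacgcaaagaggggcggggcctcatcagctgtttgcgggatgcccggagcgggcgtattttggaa
Bmf inner: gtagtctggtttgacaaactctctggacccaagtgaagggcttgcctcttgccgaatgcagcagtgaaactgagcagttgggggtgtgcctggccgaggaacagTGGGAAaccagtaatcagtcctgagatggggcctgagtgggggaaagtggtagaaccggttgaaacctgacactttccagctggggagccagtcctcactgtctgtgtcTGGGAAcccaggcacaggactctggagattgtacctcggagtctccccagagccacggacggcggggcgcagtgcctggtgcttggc
Bid: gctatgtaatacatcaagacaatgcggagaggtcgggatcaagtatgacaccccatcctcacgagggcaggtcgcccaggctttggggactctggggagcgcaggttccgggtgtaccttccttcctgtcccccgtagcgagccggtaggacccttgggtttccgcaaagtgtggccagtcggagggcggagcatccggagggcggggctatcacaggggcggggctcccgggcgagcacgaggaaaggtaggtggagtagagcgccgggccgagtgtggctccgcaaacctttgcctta

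The Bcl2l11 window held TGTTTAC on the minus strand at position -227 from the start. The second Bcl2l11 window (chr2:128127325-128127624) and the second inner Bmf window (chr2:118547550-118547849), not printed, held none of the motifs. The outermost Bmf window held none either, the inner one held TGGGAA at -146 and -37, and the Bid window held none. Promoter windows of 6 of the 8 genes were counted, 12 in all. None was found for Bik, and chromosome 18, where Pmaip1 lies, was left out of the count. Of the 12, 2 held the FOXO letters, 1 of the 2 windows of Bcl2l11 and 1 of Bbc3 at position -167, against 3.65% of the 32851 windows in the table. The RBPJ letters were in 3 of 12, 1 of the 3 windows of Bmf and 2 of Bad, against 25.6% of all windows. The STAT letters were in 0 of 12, against 8.30%. A match is a description of these letters only.

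Bid, at chr6:120893119-120917062, encodes the BH3-only protein that caspase-8 cleaves to carry a death-receptor signal to mitochondria. Probe set 1417045_at read 8.44, 8.60, 7.89 and 9.01 in TEL-JAK2, against 9.44, 9.40 and 9.86 in ICN1. All TEL-JAK2 arrays were below all ICN1 arrays, with TEL-JAK2 replicate 3 the lowest and replicate 4 the nearest to ICN1. The level was 2.12-fold lower in TEL-JAK2 (-1.08 ± 0.26, adjusted p = 0.0248 by limma). Probe set 1448560_at had the same order of TEL-JAK2 arrays, at 7.23, 7.33, 6.41 and 7.86, against 8.54, 8.78 and 8.83 in ICN1. It was 2.85-fold lower (-1.51 ± 0.31, adjusted p = 0.0133 by limma). The dim 1447873_x_at, at 5.09, 4.66, 4.20 and 5.14 in TEL-JAK2 and 5.43, 5.52 and 5.58 in ICN1, differed by -0.73 ± 0.23 and was not called (adjusted p = 0.0624 by limma). It was called without TEL-JAK2 replicate 4 (adjusted p = 0.0417), with variance trend and robust moderation (0.0493) and with CD3 centring, where the difference read -1.36. It was also called with no dim probe sets (0.0483). It passed that filter only through ICN1 arrays, the group where it is higher, so that call adds no support. All 3 probe sets thus placed TEL-JAK2 replicate 3 lowest and kept the groups apart.

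The Bid spread was the reverse of that of Bcl2l11, wider in TEL-JAK2 (SD 0.60 at 1448560_at, n = 4) than in ICN1 (SD 0.15, n = 3). TEL-JAK2 replicate 3 also had the lowest mean of its group for macrophage markers (6.42, against 7.23, 8.68 and 8.83 in TEL-JAK2 replicates 1, 2 and 4). The same held for erythroid (5.44, against 5.47 in replicate 4), granulocyte (5.16), B-lineage (6.60, against 6.62 in replicate 4) and thymic epithelial (5.88) markers. It was not the lowest for T-lineage (11.97, against 12.06, 11.85 and 11.59 in replicates 1, 2 and 4) or megakaryocyte markers (5.80, against 5.63, 5.64 and 5.84). The part of these cells in the spread was not tested. The call of 1417045_at did not survive dropping ICN1 replicates 1 or 3 (adjusted p = 0.0542 and 0.0741 by limma) or TEL-JAK2 replicates 1 or 2 (0.0667 and 0.0515). The call of 1448560_at held in all 7 such fits. With ICN1 replicate 3 as the single ICN1 array neither was called (adjusted p = 0.0865 and 0.105).

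Bad, which binds BCL2 and BCL-XL once it is dephosphorylated, lay on both sides of the threshold. Probe set 1416582_a_at read 8.26, 8.19, 8.54 and 7.95 in TEL-JAK2 and 7.53, 7.78 and 7.82 in ICN1. The groups did not overlap, but the gap between TEL-JAK2 replicate 4 and ICN1 replicate 3 was small, and the difference of 0.53 ± 0.15 was not called (adjusted p = 0.0507 by limma, and 0.0260 without TEL-JAK2 replicate 4). It was called with 1 probe set per gene (0.0457), which makes the count by gene 4 of 8, and with no dim probe sets (0.0455), quantile normalization (0.0357), cyclic loess (0.0313) and array weights (0.0317). Probe set 1416583_at read 8.29, 8.23, 8.18 and 7.63 in TEL-JAK2 and 7.25, 7.55 and 7.11 in ICN1. It was called higher, 1.72-fold (0.78 ± 0.19, adjusted p = 0.0263 by limma). That call was lost in 5 of the 7 leave-one-out fits, when ICN1 replicates 1 or 3 (0.0767 and 0.0778) or TEL-JAK2 replicates 1, 2 or 3 were dropped (0.0721, 0.0684 and 0.0679), with ICN1 replicate 3 alone (0.0825) and with CD3 centring (0.16, adjusted p = 0.431). With CD3 centring 1416582_a_at turned to -0.10.

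Bbc3 encodes PUMA, a p53-induced protein that binds all the main anti-apoptotic members. Its single probe set, 1423315_at, read 8.71, 7.78, 7.65 and 8.24 in TEL-JAK2 and 7.35, 7.75 and 7.94 in ICN1. The ranges overlapped, and the difference of 0.42 ± 0.27 (95% interval -0.22 to 1.05) was not called (adjusted p = 0.349 by limma). With CD3 centring it read -0.21.

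Pmaip1 encodes NOXA, which mainly neutralizes MCL1. Its probe set, 1418203_at, read 6.65, 6.48, 4.58 and 8.14 in TEL-JAK2 and 8.81, 5.25 and 7.06 in ICN1. Arrays of the same group differed far more than the groups did, from dim to clearly bright within ICN1 and within TEL-JAK2. Its pooled within-group SD of 1.59 was larger than that of 99.6% of all probe sets. The difference of -0.58 (95% interval -2.91 to 1.76, adjusted p = 0.747 by limma) leaves a wide range of either sign. It read 0.31 without ICN1 replicate 1 and 0.05 without TEL-JAK2 replicate 3.

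Bik and Hrk, BH3-only genes best known outside the T lineage, lay near the array medians in both leukemias. For Bik the brightest probe set, 1449836_x_at, read 5.87, 6.29, 5.68 and 5.53 in TEL-JAK2 and 4.95, 5.05 and 5.50 in ICN1. The groups barely separated, and the difference of 0.68 ± 0.21 was not called (adjusted p = 0.0622 by limma). It was called without ICN1 replicate 3 (0.0405) or TEL-JAK2 replicate 4 (0.0482) and with array weights (0.0336). With no dim probe sets 1449836_x_at was called too (0.0491), but its higher TEL-JAK2 values alone suffice to pass that filter. Its other probe sets, 1420363_at and 1420362_a_at, overlapped between the groups, at 5.19 to 5.82 and 4.54 to 6.08 in TEL-JAK2 and at 5.25 to 5.50 and from 4.22 upward in ICN1. Their differences were 0.16 ± 0.16 and 0.56 ± 0.38. For Hrk, 1439854_at read 5.94, 5.82, 5.75 and 5.69 in TEL-JAK2 and 5.46, 5.44 and 5.59 in ICN1. The groups did not overlap, yet the difference was only 0.30 ± 0.10 and was not called (adjusted p = 0.0692 by limma, and 0.0464 with array weights). Probe set 1450366_at, at 5.53 to 5.76 in TEL-JAK2 and 5.43 to 5.73 in ICN1, differed by 0.11 ± 0.11. With CD3 centring both Hrk probe sets turned, to -0.32 (not called) and -0.52 (called lower, adjusted p = 0.0464), and so did the 2 lower Bik probe sets, to -0.46 and -0.06.

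**Figure D2:**
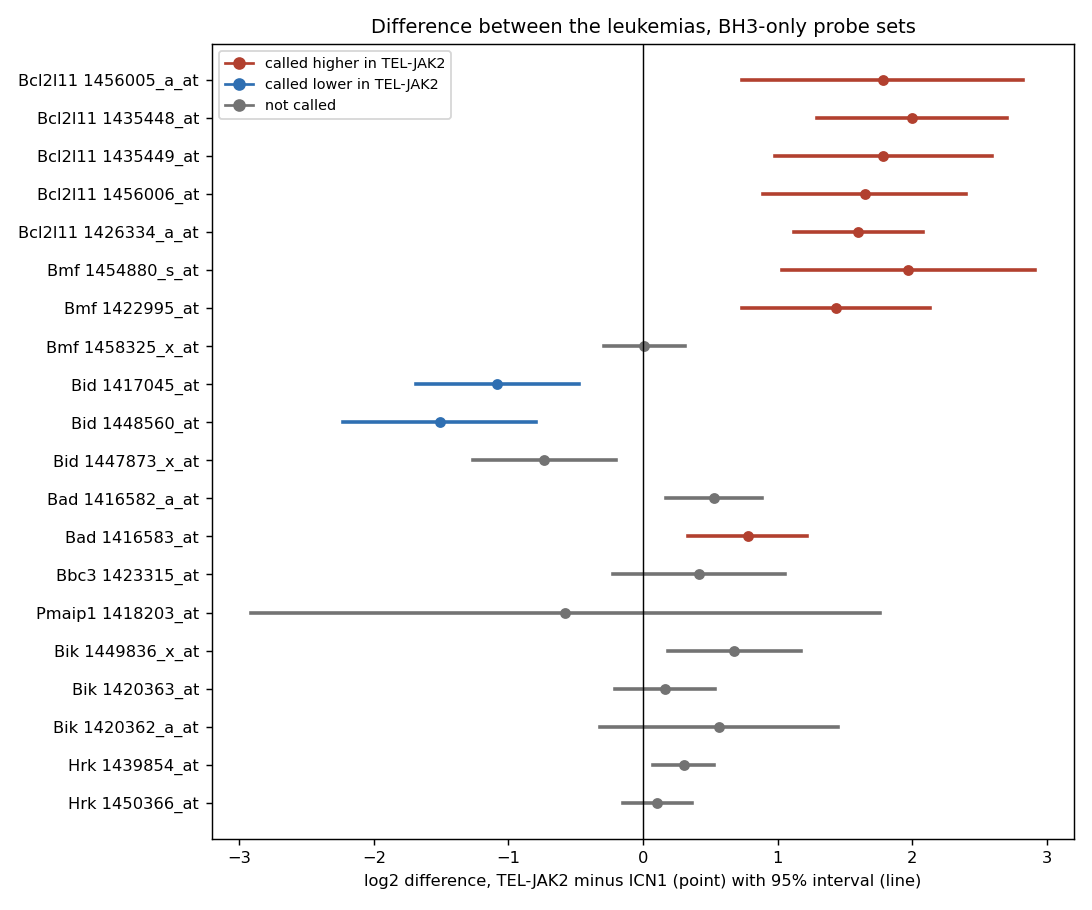
Log2 difference, TEL-JAK2 minus ICN1, of each BH3-only probe set (point) with its 95% interval (line), coloured by call. The 5 Bcl2l11 points lie between 1.60 and 2.00, the called Bid points at -1.08 and -1.51, and the Pmaip1 interval is the widest.

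The calls differed in how far they rested on single arrays. Of the 10 called probe sets, 7 were called in each of the 7 leave-one-out fits, namely 4 of Bcl2l11, 2 of Bmf and 1 of Bid. The number of called probe sets in these fits ranged from 7 to 12. Without ICN1 replicate 2 the adjusted p of every Bcl2l11 probe set was lower than with all 7 arrays.

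**Figure D3:**
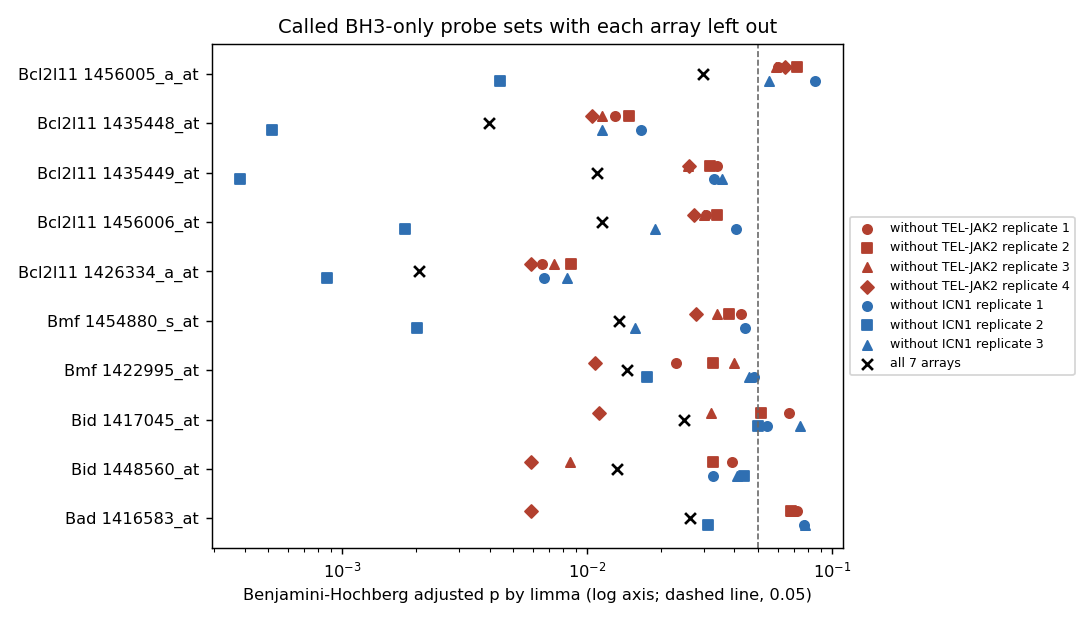
Adjusted p by limma (x axis, log scale) of the 10 called BH3-only probe sets with all 7 arrays (cross), without 1 TEL-JAK2 array (red) and without 1 ICN1 array (blue). The dashed line is 0.05. For 1456005_a_at of Bcl2l11 only the fit without ICN1 replicate 2 stays left of the line, and for 7 probe sets all fits do.

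The genes whose levels followed the called members most closely across the 7 arrays were found by the root-mean-square difference of log2 profiles, each centred on its own mean, among the brightest probe sets of all 18193 genes. For Bcl2l11 the closest gene was Bmf (0.27), followed by Tap2 (0.32), a subunit of the peptide transporter of antigen presentation, and Txnip (0.32), a thioredoxin-binding protein. Bmf was closest to Trgv1 (0.18), a T-cell receptor gamma segment, then Txnip (0.25) and Nr3c1 (0.25), the glucocorticoid receptor. All of these shared the high ICN1 replicate 2. Txnip, for example, read 12.39, 12.63, 12.96 and 12.65 in TEL-JAK2 and 10.53, 11.44 and 9.80 in ICN1. Bid was closest to Shmt1 (0.09), a serine hydroxymethyltransferase, Dkc1 (0.12), a pseudouridine synthase, and Myc (0.12), the growth regulator. Myc read 9.59, 9.89, 9.39 and 10.26 in TEL-JAK2 and 10.86, 10.63 and 11.32 in ICN1. It therefore had the same lowest TEL-JAK2 array and the same highest ICN1 array as Bid at 1417045_at. These distances describe 7 arrays that fall into 2 groups.

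**Figure D4:**
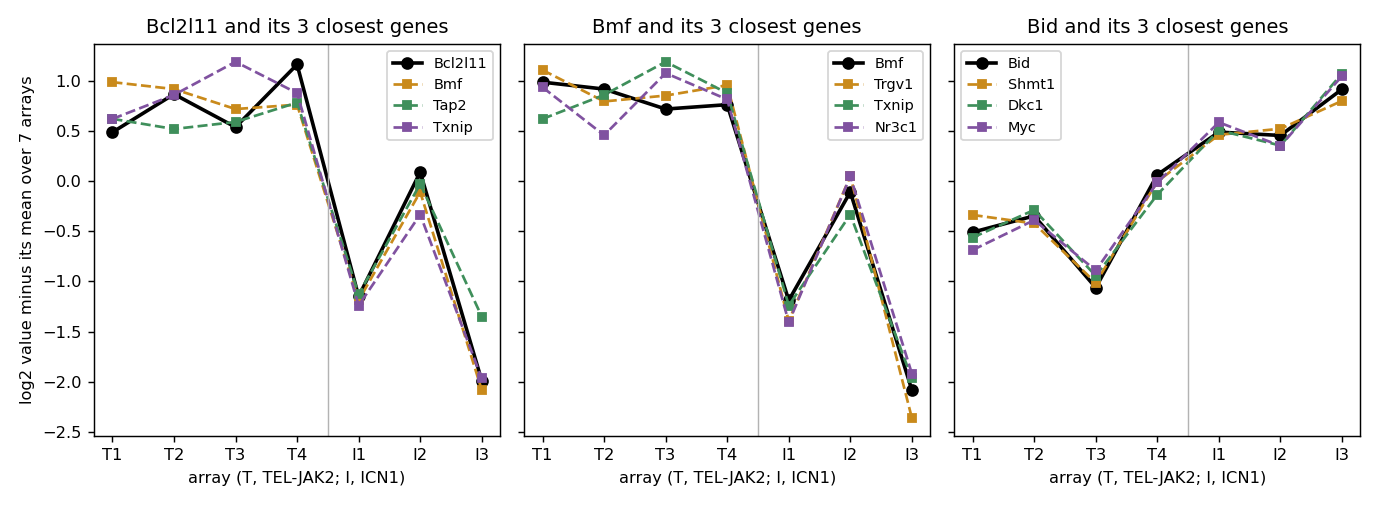
Log2 value minus its mean over the 7 arrays (y axis) for the brightest probe set of Bcl2l11, Bmf and Bid (black) and of the 3 genes closest to each (dashed), in TEL-JAK2 replicates 1 to 4 (T1 to T4) and ICN1 replicates 1 to 3 (I1 to I3). Bcl2l11, Bmf and their closest genes share the raised I2, and Bid and its closest genes share the low T3 and the high I3.

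Other genes of the pathway were each represented by their brightest probe set. Of 50 measured genes in 7 lists, 14 were higher, 6 were lower and 30 were not called, with a median difference of 0.15. Over all genes 23% were called (11.3% higher and 11.7% lower), and the count of each list below is to be read against that share. With CD3 centring 7 were higher and 23 lower. Over all 45037 probe sets that centring gave 1558 higher and 30005 lower.

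Among the anti-apoptotic partners, Bcl2 and Mcl1 were higher in TEL-JAK2. Bcl2, to which BIM, BMF, BAD and PUMA bind, read 12.62, 12.75, 12.91 and 13.22 in TEL-JAK2 and 8.20, 7.40 and 7.21 in ICN1. The lowest TEL-JAK2 array was far above the highest ICN1 array, and all 4 further probe sets of Bcl2 were called higher as well, with differences of 4.75 to 5.65. Mcl1, the partner of NOXA, averaged 12.91 ± 0.19 (SD, n = 4) in TEL-JAK2 and 11.98 ± 0.06 (SD, n = 3) in ICN1 (adjusted p = 0.00215 by limma, but 0.0970 with CD3 centring). Bcl2l1 (-0.14 ± 0.39), Bcl2l2 (-0.95 ± 0.44) and Bcl2l10 (0.06 ± 0.09) were not called. With CD3 centring Bcl2l1 and Bcl2l2 were lower (-0.77 and -1.57), and Bcl2l10 turned to -0.56 and was called lower. Bcl2l10 was dim, with means of 4.01 in TEL-JAK2 and 3.95 in ICN1, and the centring shifts every difference by -0.62. Of the pore formers, Bak1 (-0.26 ± 0.18) and Bok (-0.10 ± 0.13) were not called, but both were lower with CD3 centring (-0.89 and -0.72). A dim further probe set of Bak1 was called higher (0.50, adjusted p = 0.00673 by limma).

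Proteins with a BH3-like domain but other main roles gave 2 lower and 2 uncalled genes of 4. Becn1, an autophagy regulator, was lower (-0.59 ± 0.12, adjusted p = 0.0145 by limma), as was 1 of its 4 further probe sets. Huwe1, a ubiquitin ligase for MCL1, was lower (-0.44 ± 0.11, adjusted p = 0.0343), and lost that call in 6 of the 7 leave-one-out fits, keeping it only when TEL-JAK2 replicate 4 was dropped (0.0633 to 0.0951), with ICN1 replicate 3 as the single ICN1 array (0.123) and with quantile normalization (0.0531). None of its 4 further probe sets was called. Bnip3 (0.85 ± 0.53), a mitophagy receptor, and Rad9a (0.39 ± 0.17), a DNA damage checkpoint clamp subunit that turned to -0.24 with CD3 centring, were not called.

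Of 8 transcription factors known to regulate BH3-only genes, 2 were higher and 1 was lower, where 23% of all genes were called. Nr3c1, through which glucocorticoids raise Bcl2l11 and Bmf in lymphoid cells, read 11.93, 11.45, 12.07 and 11.80 in TEL-JAK2 and 9.58, 11.04 and 9.07 in ICN1. It had the same ICN1 order as Bmf, with replicate 2 highest and replicate 3 lowest, and was 3.77-fold higher in TEL-JAK2 (1.91 ± 0.43, adjusted p = 0.0196 by limma). The call did not survive dropping ICN1 replicate 1 (0.0657) or TEL-JAK2 replicates 1 or 3 (0.0563 and 0.0540), and 4 of its 5 further probe sets were called higher. Foxo1, a forkhead factor that activates Bcl2l11, was higher (0.82 ± 0.11, adjusted p = 0.00289), but not with CD3 centring (0.20, adjusted p = 0.379). E2f1, a cell cycle factor that can induce several BH3-only genes, was lower (-0.73 ± 0.10, adjusted p = 0.00220). Foxo3 (-0.17 ± 0.20), Foxo4 (-0.76 ± 0.29), Trp73 (0.12 ± 0.08), Ddit3 (0.36 ± 0.24) and Jun (-0.16 ± 1.04) were not called. With CD3 centring Foxo3 (-0.79), Foxo4 (-1.38) and Trp73 (-0.50) were called lower. Trp73 was dim, with means of 4.22 in TEL-JAK2 and 4.10 in ICN1.

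Among 16 kinases, phosphatases and binding proteins that act on BH3-only proteins, 4 were higher and 1 was lower, where 23% of all genes were called. Ppp3ca, the catalytic subunit of calcineurin, which dephosphorylates BAD, was 4.66-fold higher (2.22 ± 0.35, adjusted p = 0.00456 by limma), and both of its further probe sets were higher too (1.53 and 2.07). Its call was lost with ICN1 replicate 3 as the single ICN1 array (adjusted p = 0.0579). Akt2, a kinase of the family that phosphorylates BAD, was higher (0.78 ± 0.14). Of its further probe sets, 1421324_a_at was higher too (0.62 ± 0.16) and 1455703_at was not called (-0.0063 ± 0.17). Akt1 of the same family (-0.08 ± 0.18) and the kinases Pim1 (-0.05 ± 0.14) and Pim2 (1.05 ± 0.58) were not called. Of 7 genes of the 14-3-3 family, whose products hold phosphorylated BAD in the cytosol, 2 were higher, 1 was lower and 4 were not called. Ywhaz (0.50 ± 0.10) and Ywhab (0.47 ± 0.10) were higher, Ywhae was lower (-0.46 ± 0.13), and Ywhag (-0.01 ± 0.26), Ywhah (0.14 ± 0.12), Ywhaq (0.11 ± 0.12) and Sfn (0.14 ± 0.13) were not called. Further probe sets were called in the same direction in 1 of 6 for Ywhaz, 4 of 5 for Ywhab and 1 of 3 for Ywhae. Dropping ICN1 replicate 2 ended the call of Ywhab (adjusted p = 0.0525), and Ywhae was called in none of the 7 leave-one-out fits (0.0517 to 0.0955). With ICN1 replicate 3 alone Akt2, Ywhaz and Ywhab were not called (0.111, 0.151 and 0.106), and with CD3 centring Ywhaz and Ywhab turned to -0.12 and -0.15 and Akt2 was not called (0.401). Mapk8, the stress kinase JNK1 that phosphorylates BIM and BMF, differed by 0.01 ± 0.25 at its brightest probe set. Of its 4 further probe sets, 1440856_at was called higher without overlap (0.82 ± 0.19, adjusted p = 0.0203 by limma) and the other 3 were not called.

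The route from death receptors to BID had 4 higher and 1 lower of 8 genes measured, against 23% of all genes called, while Bid itself was lower. The receptor gene Tnfrsf1a was 3.51-fold higher (1.81 ± 0.31, adjusted p = 0.00697 by limma) and Cflar, an inhibitor of caspase-8 activation, 2.24-fold (1.17 ± 0.21, adjusted p = 0.00766, but 0.0772 with ICN1 replicate 3 alone). Tnfrsf1a is also expressed by myeloid and stromal cells. Fas read 9.03, 8.85, 8.98 and 7.76 in TEL-JAK2 and 6.26, 7.52 and 4.96 in ICN1, and was higher without overlap (2.41 ± 0.59, adjusted p = 0.0269). Its call ended on dropping ICN1 replicate 1 (0.0713) or TEL-JAK2 replicates 1, 2 or 3 (0.0745, 0.0674 and 0.0698). Casp8, the protease that cleaves BID, was higher (0.64 ± 0.18, adjusted p = 0.0486). This call was lost in 6 of the 7 leave-one-out fits, the exception being ICN1 replicate 3 dropped (0.0505 to 0.112), with ICN1 replicate 3 alone (0.148) and with median centring (0.0529), and with CD3 centring the difference read 0.01. Mtch2, the mitochondrial receptor of cleaved BID, was lower (-0.58 ± 0.17, adjusted p = 0.0463), and that call was lost in 6 of those 7 fits, the exception being ICN1 replicate 2 dropped (0.0572 to 0.124), with ICN1 replicate 3 alone (0.0664), with median centring (0.0579) and with array weights (0.0597). None of its 6 further probe sets was called. Fadd (-0.05 ± 0.13) and Tnfrsf10b (0.20 ± 0.11) were not called. With CD3 centring both were called lower, Fadd at -0.67 (adjusted p = 0.0184) and Tnfrsf10b at -0.42 (0.0457). Tnfrsf10b was dim, with means of 4.66 in TEL-JAK2 and 4.45 in ICN1. Gzmb, a cytotoxic protease that can also cleave BID, was not called (4.37 ± 1.91, adjusted p = 0.163). It read 6.51, 13.28, 5.67 and 12.41 in TEL-JAK2 and 5.38, 4.63 and 5.28 in ICN1, so that 2 TEL-JAK2 arrays were bright and the other two dim.

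Downstream of the pores, the apoptosome and caspase list had 2 higher and 1 lower of 7 genes, against 23% of all genes called. Casp6, an effector caspase, was 3.64-fold higher (1.86 ± 0.20, adjusted p = 0.00105 by limma). Xiap, an inhibitor of caspases, was higher (0.60 ± 0.15, adjusted p = 0.0322). It was not called in 5 of the 7 leave-one-out fits, the exceptions being ICN1 replicate 1 and TEL-JAK2 replicate 4 dropped (0.0662 to 0.0887), and with ICN1 replicate 3 alone (0.0628). None of its 6 dimmer probe sets was called, and with CD3 centring its difference turned to -0.027. Htra2, a mitochondrial protease that antagonizes XIAP, was 2.19-fold lower (-1.13 ± 0.15, adjusted p = 0.00255). Apaf1 (0.44 ± 0.18), Casp9 (0.16 ± 0.10), Diablo (0.43 ± 0.14) and Cycs (-0.55 ± 0.17) were not called at their brightest probe sets with all 7 arrays. A further probe set of Cycs, 1422484_at, was called lower (-0.74 ± 0.21, adjusted p = 0.0429), and its other two were not called. The brightest Cycs probe set was called lower without TEL-JAK2 replicate 2 (adjusted p = 0.0129) and Diablo higher without ICN1 replicate 1 (0.0221). With CD3 centring Casp9 turned to -0.46 and was called lower (adjusted p = 0.0490), Cycs was called lower (-1.17), and Apaf1 and Diablo turned to -0.19 each without a call.

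**Figure D5:**
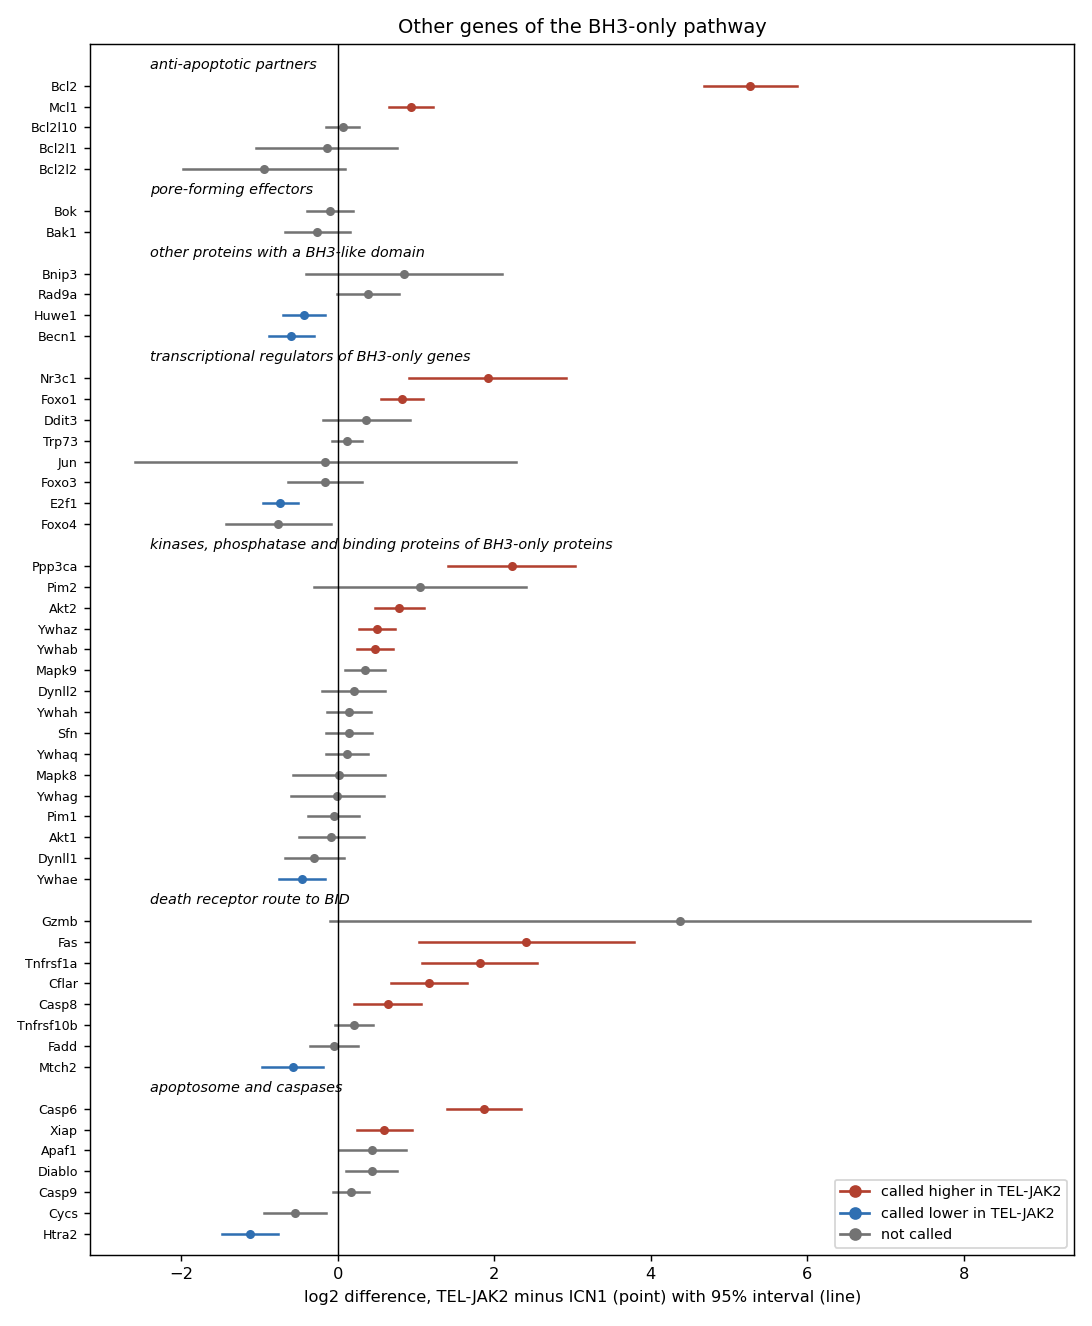
Log2 difference, TEL-JAK2 minus ICN1, of 50 other genes of the pathway (point, brightest probe set of each gene) with its 95% interval (line), in 7 lists and coloured by call. Bcl2 has the largest called difference (5.27), and the interval of Gzmb is the widest, from -0.10 to 8.84.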

How the data were processed

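Per the labels, total RNA of 7 leukemic cell suspensions was hybridized to Affymetrix mouse arrays, 1 array each. The authors deposited log2 values made by RMA, per the submitters' processing notes (version and settings not given in the sources used here). RMA draws all arrays to 1 distribution and compresses folds near background. Detection calls and batches were not used. The number of arrays limits the precision. Replicate numbers follow accession order. The titles give each array its own identifier without stating that these are separate animals. TEL-JAK2 replicate 4 differs from replicates 1 to 3 in its sex-linked transcripts. P-values of the main fit rest on the spread among the arrays given, pooled over both groups and moderated by limma across all probe sets.

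Symbols came from the platform annotation: of 45037 probe sets, 34945 had 1 symbol, 932 several and 9160 none. All 8 members were matched in RefSeq (GRCm38.p6), the source of coordinates and promoters. All probe sets were fitted with limma 3.58.1 (R 4.3.3, lmFit then eBayes, two-sided), by genotype. In simulated data 200 probe sets were changed, in equal parts by 1 or by 2 units. The fit called 45 and 85 of these, and 10 unchanged ones. With none changed it called 0. Both groups were simulated with the same spread, so unequal spread was not covered. Members and lists were chosen with earlier results of these data known. Of 62 listed pathway genes, 50 were measured, and the others were not analysed here. From each pathway list the text names up to 4 called genes with the smallest adjusted p and up to 2 uncalled genes with the largest. All members of a count of 5 or fewer in these pathway lists are named too. Of the markers it names the 3 brightest T-lineage and erythroid genes, Ptcra, Vpreb1, Epcam, Foxn1 and Psmb11. Other markers behind the marker counts are not named. For each called member the 3 closest profiles are named. Akt1, Pim1 and Pim2 are named besides, next to Akt2. The alternatives were 1 probe set per gene, no cross-hybridizing or no dim probe sets, 4 scalings, 2 variance models, unequal variances, an adjusted p under 0.01, ICN1 replicate 3 as the single ICN1 array (its spread assumed to be that of TEL-JAK2), and each array left out. The filter on dim probe sets removed those whose highest array lay under the median of all values. High values in 1 group could thus carry a probe set past it. Figures used matplotlib 3.10.9.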

Additional observations from a re-analysis of the deposited data

Results flagged for a closer look

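Among 61 probe sets checked in the 4 TEL-JAK2 arrays, 1 had an array standing apart from the others. For Fas, the death receptor upstream of BID, TEL-JAK2 replicate 4 read 7.76 and the other TEL-JAK2 arrays 8.85 to 9.03. The gap to the nearest array was 0.863 of the range, above the 95% critical value of Dixon's test for 4 values. Chance alone gives about 1 such array in 20 groups. No BH3-only probe set had such an array.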

How the results depend on the processing

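The number of called BH3-only probe sets, 10 of 20 with all arrays, was 4 of 8 with 1 probe set per gene, 6 with ICN1 replicate 3 as the single ICN1 array, 2 at an adjusted p under 0.01 and 0 with unequal variances, where 10 of the 20 had an unadjusted p under 0.05. It was 7 to 12 with 1 array left out. Pathway genes called, 20 of 50, became 6 with unequal variances, 11 with ICN1 replicate 3 alone, 10 at the stricter threshold and 13 to 18 with 1 array left out. Over all probe sets the 8832 calls became 4380 with 1 probe set per gene, 31563 with CD3 centring, 2266 with unequal variances, 5813 with ICN1 replicate 3 alone, 4152 at the stricter threshold and 6175 to 8563 with 1 array left out. With CD3 centring 4.94% of those calls were higher, against 47.2%. Fewer probe sets tested or fewer arrays account for part of these changes by construction, and other causes were not tested.

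Signs turned with CD3 centring for the third Bmf probe set (-0.61), Bad 1416582_a_at (-0.10), Bbc3 (-0.21), 2 Bik probe sets (-0.46 and -0.057), Hrk (-0.32 and -0.52), Bcl2l10 (-0.56), Rad9a (-0.24), Trp73 (-0.50), Ddit3 (-0.26), Ywhaz (-0.12), Ywhab (-0.15), Mapk8 (-0.61), Tnfrsf10b (-0.42), Xiap (-0.027), Casp9 (-0.46), Apaf1 (-0.19) and Diablo (-0.19). With ICN1 replicate 3 alone they turned for the third Bmf probe set (-0.27), Hrk 1450366_at (-0.041), Bcl2l1 (0.42), Bcl2l10 (-0.067), Bok (0.047), Jun (1.04), Foxo3 (0.24) and Mapk8 (-0.19). Cyclic loess turned the third Bmf probe set (-0.034). Ywhag, near 0, turned with cyclic loess (0.016), quantile normalization (0.014), median centring (0.00097) and array weights (0.053). With 1 array left out the ranges crossed 0 for the third Bmf probe set (-0.10 to 0.15), Pmaip1 (-1.47 to 0.31), Bcl2l1 (-0.42 to 0.16), Jun (-0.95 to 1.24), Ywhag (-0.31 to 0.25), Mapk8 (-0.12 to 0.23) and Fadd (-0.15 to 0.014). No called BH3-only probe set turned its sign under any alternative run. No paired analysis was possible because the labels give the arrays of the 2 groups no shared numbers.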
